A study of Mus musculus with 24 samples.

Results

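The 32 genes described here encode proteins of the synaptic vesicle and of the presynaptic release site: 7 synaptotagmins, 6 SNARE proteins and complexins, 11 vesicle proteins and 8 proteins of the active zone and of adhesion across the cleft. They were taken by name, as a list chosen with earlier results of these data known. All 32 were found in the deposited mouse RNA-seq table, which has 22889 gene entries. Its 24 samples form 4 groups of 6: oculomotor neuron (OMN) and spinal motor neuron (SC) cultures were each sorted by FACS into GFP-positive (GFP+) cells and GFP-negative (GFP-) cells, and every fraction was collected in bulk. OMN cultures came from Islet1-GFP/NesEPhox2A, a mouse embryonic stem cell (mESC) line with an Islet1-GFP reporter in which the nestin enhancer drives a *Phox2a* transgene, an enhancer active in neural progenitors, and embryoid bodies received 250 nM of the Smoothened agonist SAG and 100 ng/ml Fgf8. SC cultures came from an Hb9-GFP line, with no such transgene labelled, and received 500 nM SAG and 100 nM retinoic acid. All cultures were patterned for 5 days. Line, reporter and patterning factors changed together between the cultures and cannot be told apart, and in bulk samples fewer neurons and less RNA per neuron cannot be told apart either.

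Neurotransmitter is stored in synaptic vesicles, which dock at the active zone, are primed there, and fuse with the plasma membrane when calcium enters the terminal. Fusion is driven by SNARE proteins on the vesicle and on the plasma membrane, synaptotagmins sense the calcium, and the vesicle membrane is then retrieved and refilled. Motor neurons use this machinery to release acetylcholine onto muscle, and many of its genes are kept silent outside neurons by the repressor REST.

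The smallest steps between low RPKM values put the depth at 752529 to 4642207 reads for replicates 1 to 4 of each group, and at 4822576 to 7675428 reads for replicates 5 and 6. Reporter markers followed the labels in all but 1 pair. *Isl1* was 141 to 369 RPKM in OMN GFP+ samples and 0.696 to 1.87 RPKM in OMN GFP- samples. *Mnx1* (Hb9) was 43.1 to 149 RPKM in SC GFP+ samples. In SC GFP- samples other than sample 4 the 9 motor neuron markers, *Mnx1* included, summed to 7.90 to 43.5 RPKM. *Phox2a*, which is no reporter but the transgene of the OMN line, was 5.83 to 53.4 RPKM in OMN GFP+ and 0 to 8.59 RPKM in SC GFP+ samples, so the ranges overlapped. The exception was SC pair 4, where *Mnx1* was also 69.4 RPKM in the GFP- sample and the GFP+ sample had the lowest *Isl1* of its group (7.63 RPKM) and a pan-neuronal marker sum of 89.5 RPKM, against 458 to 2119 in the other 5. Across 22179 genes its fractions correlated at 0.966, the highest of the 12 pairs. In this pair the 6 pluripotency markers summed to 5142 RPKM (GFP+) and 5785 RPKM (GFP-). The other SC GFP- samples held 74.4 to 393 RPKM, and the other SC GFP+ samples 14.4 to 12400 RPKM. In SC GFP- sample 2, 3 gene models (*Gm10800*, *Gm10801* and *Gm21738*) held 68.8% of the summed RPKM. The 6 glial markers summed to at most 14.9 RPKM in any sample and the 7 interneuron markers to at most 9.98.

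**Figure D1:**
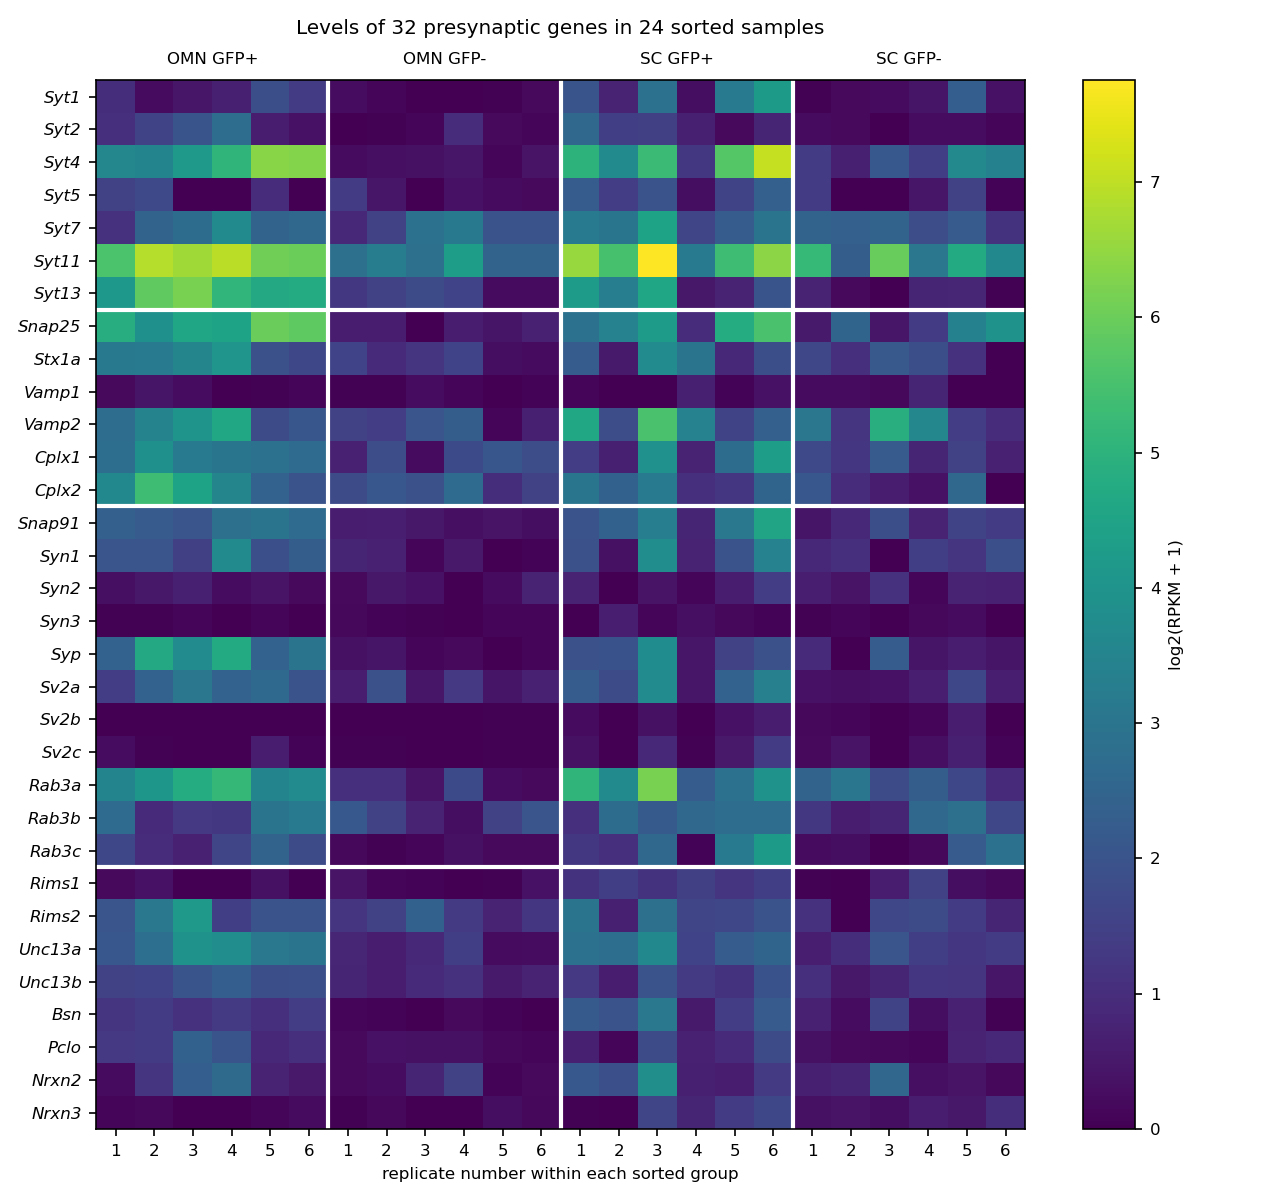
Level of the 32 presynaptic genes (rows, grouped by role) in the 24 samples (columns, by sorted group and replicate), as log2(RPKM + 1) on the colour scale. The summed level is 180 to 399 RPKM in OMN GFP+ columns and 18.1 to 56.3 RPKM in OMN GFP- columns, and SC GFP+ replicate 4, at 54.2 RPKM, is the lowest of its group.

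The summed level of the 32 genes was 180 to 399 RPKM in the 6 OMN GFP+ samples (median 337) and 18.1 to 56.3 RPKM in the OMN GFP- samples (median 30.5), with no overlap. In the SC cultures it was 54.2 to 582 RPKM in GFP+ samples (median 235) and 32.3 to 130 RPKM in GFP- samples (median 66.6). These ranges overlapped through SC GFP+ sample 4, the lowest of its group, and without it the GFP+ sums started at 138 RPKM. By group mean, 24 of the 32 genes were above 1 RPKM in OMN GFP+, 10 in OMN GFP-, 27 in SC GFP+ and 16 in SC GFP- cells. Above 10 RPKM the counts were 8, 0, 5 and 1. Part of the machinery was thus also measured in the GFP- cells, where *Syt11*, a vesicle trafficking synaptotagmin, had the highest mean of the 32 genes.

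**Figure D2:**
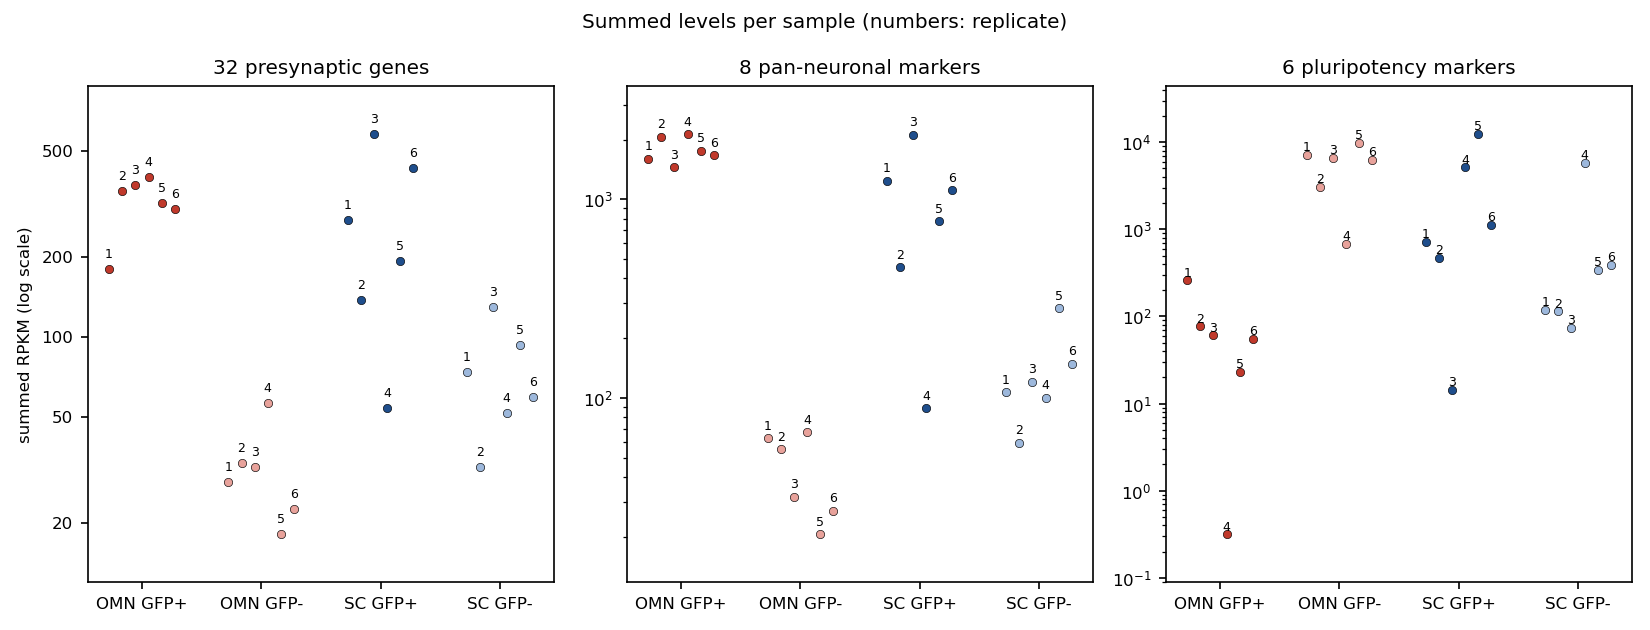
Summed RPKM per sample (log scale; numbers give the replicate) of the 32 presynaptic genes, 8 pan-neuronal markers and 6 pluripotency markers in the 4 groups. SC GFP+ replicate 4 sits at 54.2 RPKM for the presynaptic genes, below all other GFP+ samples, and at 89.5 RPKM for the neuronal markers.

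Promoter windows of 300 bases (250 before and 50 after the annotated start, RefSeq, GRCm38.p6) were given for 23 of the 32 genes. They are shown for 4 genes that carry the comparisons below: *Syn1*, a well-known REST target, *Unc13a* and *Syp*, which were higher in OMN GFP+ cells, and *Rims1*, the gene that differed between the motor neuron types. Windows are *Syn1* chrX:20920869-20921168 (minus strand), *Unc13a* chr8:71671708-71672007 (minus), *Syp* chrX:7638330-7638629 (plus) and *Rims1* chr1:22806109-22806408 (minus), each written along the gene. Capitals mark the left arm (TCAGCACC) and right arm (GGACAG) of the RE1 element bound by REST, and the cyclic AMP response element (CRE, TGACGTCA), on either strand.
Syn1: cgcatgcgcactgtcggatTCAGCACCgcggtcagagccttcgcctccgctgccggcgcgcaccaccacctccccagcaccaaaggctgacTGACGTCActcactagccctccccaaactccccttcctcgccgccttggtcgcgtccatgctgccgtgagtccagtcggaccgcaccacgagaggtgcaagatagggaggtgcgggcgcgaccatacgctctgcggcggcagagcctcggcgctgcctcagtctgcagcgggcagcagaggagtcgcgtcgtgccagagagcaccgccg
Unc13a: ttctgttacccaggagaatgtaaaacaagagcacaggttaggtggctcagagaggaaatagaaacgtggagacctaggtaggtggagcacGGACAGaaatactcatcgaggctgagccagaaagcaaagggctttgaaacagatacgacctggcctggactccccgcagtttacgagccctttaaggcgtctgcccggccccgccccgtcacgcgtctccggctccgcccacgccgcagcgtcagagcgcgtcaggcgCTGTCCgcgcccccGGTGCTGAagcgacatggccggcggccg
Syp: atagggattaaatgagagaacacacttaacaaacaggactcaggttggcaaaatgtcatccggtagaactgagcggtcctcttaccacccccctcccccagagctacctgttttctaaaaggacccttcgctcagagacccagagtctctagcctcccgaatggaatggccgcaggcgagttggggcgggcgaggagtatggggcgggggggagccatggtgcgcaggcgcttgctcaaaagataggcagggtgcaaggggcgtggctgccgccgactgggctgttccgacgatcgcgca
Rims1: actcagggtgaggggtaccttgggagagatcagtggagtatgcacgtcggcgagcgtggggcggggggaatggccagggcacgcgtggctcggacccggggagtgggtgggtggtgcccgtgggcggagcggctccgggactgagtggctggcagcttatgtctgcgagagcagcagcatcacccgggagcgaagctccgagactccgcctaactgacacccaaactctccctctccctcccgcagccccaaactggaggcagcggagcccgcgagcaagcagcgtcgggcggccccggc
The left RE1 arm was found in 2 of the 23 genes, *Syn1* (base 20 of its window) and *Unc13a*, and in 1.99% of the 14855 genes of the table with a window. *Unc13a* also held a right arm at base 259, beside the left arm at base 273 and in the same orientation, and another at base 91 on the opposite strand. The right arm was in 7 of the 23 genes, against 26.4% of all genes. A CRE was found in *Syn1* alone (base 92, against 2.89% of all genes), and the GC box GGGCGG, not capitalised, in 20 of the 23 genes (56.4% of all genes), with 2 in *Syp*, 3 in *Rims1* and 0 in *Syn1*. These are matches of letters, and binding was not measured.

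The step from GFP- to GFP+ cells asked which presynaptic genes were raised in the sorted motor neurons over the rest of their own culture. In the OMN cultures 13 of the 32 genes rose and none fell (limma on log2(RPKM + 1), adjusted p under 0.05 over 22179 genes), where 6.15% of all genes tested changed, 3.81% upwards and 2.34% downwards. They were the synaptotagmins *Syt4*, *Syt11* and *Syt13*, the SNAREs *Snap25* and *Stx1a*, the vesicle genes *Syp*, *Rab3a*, *Syn1* and *Snap91*, and the active zone genes *Unc13a*, *Unc13b*, *Bsn* and *Pclo*. Levels were higher in OMN GFP+ cells for 29 of the 32 genes (44.4% of all genes), with a median log2 change of 1.21 against 0 over all genes. Groups did not overlap for 15 genes (4.04% of all genes with GFP+ higher, 2.48% with GFP+ lower). With each culture's replicate pairs as a block 21 genes rose, *Cplx1*, *Cplx2*, *Nrxn2*, *Rab3c*, *Rims2*, *Sv2a*, *Syt2* and *Vamp2* in addition, while the share of all genes that rose was 8.22%. Counts were 10 to 15 when 1 OMN sample was left out; *Stx1a*, *Syn1* and *Bsn* then missed the threshold in some fits and passed in 8, 9 and 10 of 12, and the other 10 genes passed in all 12. Within replicates 1 to 4 alone, and within replicates 5 and 6 alone, 8 genes rose (1.72% and 2.46% of all genes).

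In the SC cultures 2 of the 32 genes rose, *Bsn* and *Rims1*, where 1.23% of all genes tested changed, 0.397% upwards and 0.83% downwards. The other genes leaned the same way: 30 of the 32 were higher in GFP+ cells (49.2% of all genes). The median log2 change of the 32 was 0.95 (0 over all genes), and 16 had an unadjusted limma p under 0.05 (10.4% of all genes). In all 6 pairs 6 were higher, a share not counted over all genes. The groups overlapped for each of the 32 genes (they did not for 0.0722% of all genes, GFP+ higher). The count turned on SC pair 4: without both of its samples 9 genes rose (*Syt1*, *Syt4*, *Syt13*, *Rab3a*, *Sv2a*, *Snap91* and *Unc13a* beside *Bsn* and *Rims1*), a comparison added after their marker levels were seen. Without its GFP+ sample alone 11 rose, *Snap25* and *Syt11* in addition. The share of all genes that rose was higher in these fits too, 1.36% and 1.51%. Leaving out GFP- sample 1 or 6 gave 0. With the replicate pairs as a block within each culture 8 genes rose (*Bsn*, *Rab3a*, *Rims1*, *Snap91*, *Sv2a*, *Syt4*, *Syt11* and *Unc13a*), where 1.33% of all genes did. With the replicate number alone 6 rose (0.694% of all genes), and in a fit of the 12 spinal samples 0 (13 at an unadjusted p under 0.05, against 6.57% of all genes).

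**Figure D3:**
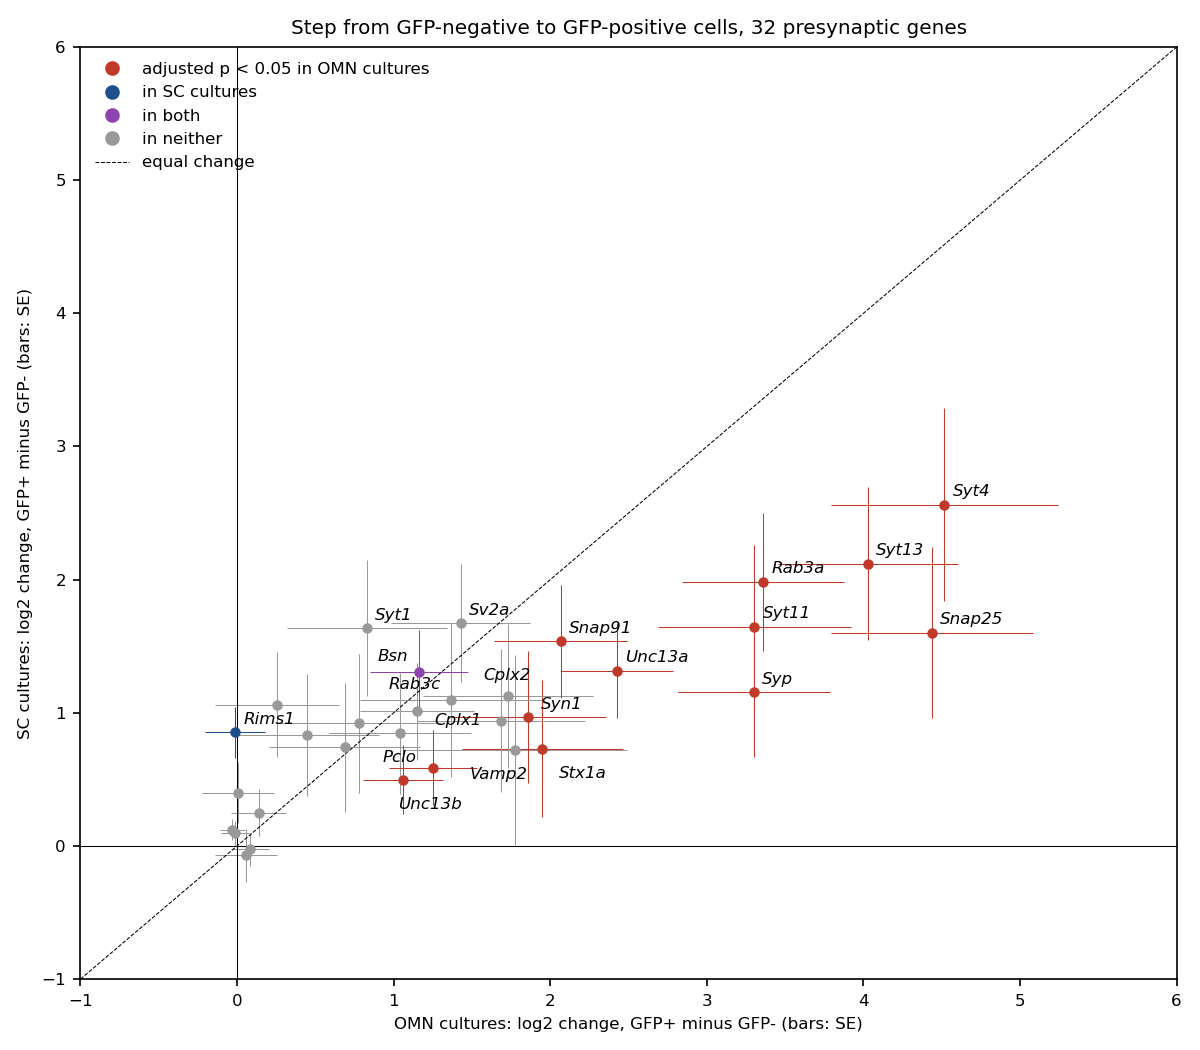
Log2 change from GFP- to GFP+ cells (log2(RPKM + 1), bars SE) of the 32 genes in OMN cultures (x axis) and SC cultures (y axis); colour gives where the adjusted p passed 0.05. *Syt4*, *Snap25*, *Syt13*, *Rab3a*, *Syt11* and *Syp* lie furthest right, below the line of equal change, and *Bsn* and *Rims1* are the genes past the threshold in SC cultures.

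Whether the step differed between the cultures was tested as an interaction. The GFP- cells it starts from were not alike: their pluripotency marker sum had a median of 6437 RPKM in OMN and 231 RPKM in SC cultures. None of the 32 genes passed (0.32% of all genes did), and 5 had an unadjusted p under 0.05 (7.13% of all genes), *Snap25*, *Syp*, *Syt13*, *Unc13a* and *Rims1*. The largest differences were for *Snap25* (2.84 ± 0.91 SE log2 units larger in OMN cultures, limma adjusted p = 0.29) and *Syp* (2.15 ± 0.69, adjusted p = 0.29), while that of *Rims1* was -0.87 ± 0.27 (adjusted p = 0.27). With the pairs as a block within each culture *Snap25* and *Syp* passed (adjusted p = 0.029 and 0.039), where 2.04% of all genes did. Without SC GFP- sample 4, which held the highest *Rims1* of its group, *Rims1* passed instead, at -1.08 (adjusted p = 0.0031; 1.06% of all genes passed).

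Among the 7 listed synaptotagmins, *Syt4*, *Syt11* and *Syt13* made up most of the transcript. They bind calcium weakly or not at all and are linked to membrane trafficking other than fast transmitter release. Together they held a median of 95.3% of the summed RPKM of these 7 genes in OMN GFP+ samples (91.2% to 96.0%) and 87.2% in SC GFP+ samples (75.6% to 89.4%), against 65.3% in OMN GFP- samples (58.2% to 81.8%) and 82.4% in SC GFP- samples (50.9% to 93.1%). Other synaptotagmins were not in this sum. *Syt11* had the highest mean of the 32 genes in all 4 groups. Its level was 45.6 to 122 RPKM in OMN GFP+ samples (median 82.4) and 4.54 to 18.9 RPKM in OMN GFP- samples (median 6.30), without overlap, and rose by 3.30 ± 0.62 log2 units (limma adjusted p = 0.0014). Its spinal step was 1.65 ± 0.62 (adjusted p = 0.28, and 0.026 with the pairs as a block).

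*Syt4* showed the largest step of all 32 genes in OMN cultures. It was 10.4 to 82.7 RPKM in OMN GFP+ samples (median 24.7) and 0.106 to 0.380 RPKM in OMN GFP- samples, a rise of 4.52 ± 0.73 log2 units (adjusted p = 0.00029). In SC GFP+ samples it was 1.38 to 133 RPKM (median 34.5), with 1.38 in sample 4, and in SC GFP- samples 0.606 to 11.4 RPKM. The spinal step was 2.56 ± 0.73 (adjusted p = 0.091, and 0.021 with the pairs as a block), and 3.25 without SC GFP+ sample 4 (adjusted p = 0.0035).

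*Syt13* was 16.7 to 71.9 RPKM in OMN GFP+ samples (median 29.6) and 0.165 to 2.41 RPKM in OMN GFP- samples. It rose by 4.03 ± 0.58 log2 units (adjusted p = 7.9e-05). SC GFP+ samples held 0.408 to 22.4 RPKM (median 6.02), and the OMN and SC ranges of GFP+ cells overlapped. The spinal step was 2.12 ± 0.58 (adjusted p = 0.071).

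The fast calcium sensors *Syt1* and *Syt2* were low in comparison. *Syt1* was 0.163 to 2.61 RPKM in OMN GFP+ samples and 0.215 to 17.8 RPKM in SC GFP+ samples, a median share of 0.61% and 1.98% of the sum of the 7 synaptotagmins. *Syt2* was 0.303 to 5.83 RPKM in OMN GFP+ and 0.145 to 5.00 RPKM in SC GFP+ samples. *Syt7*, a sensor for slow and sustained release, was 1.14 to 11.8 RPKM in OMN GFP+ and 0.841 to 7.77 RPKM in OMN GFP- samples, where it held a median of 30.3% of that sum. *Syt5*, a further calcium-binding member, was 0 to 2.28 RPKM in OMN GFP+ and 0.215 to 4.16 RPKM in SC GFP+ samples. Without the block none of them passed in either culture; *Syt2* missed it in OMN cultures (log2 change 1.15 ± 0.36, adjusted p = 0.063) and passed with the pairs as a block (adjusted p = 0.020).

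**Figure D4:**
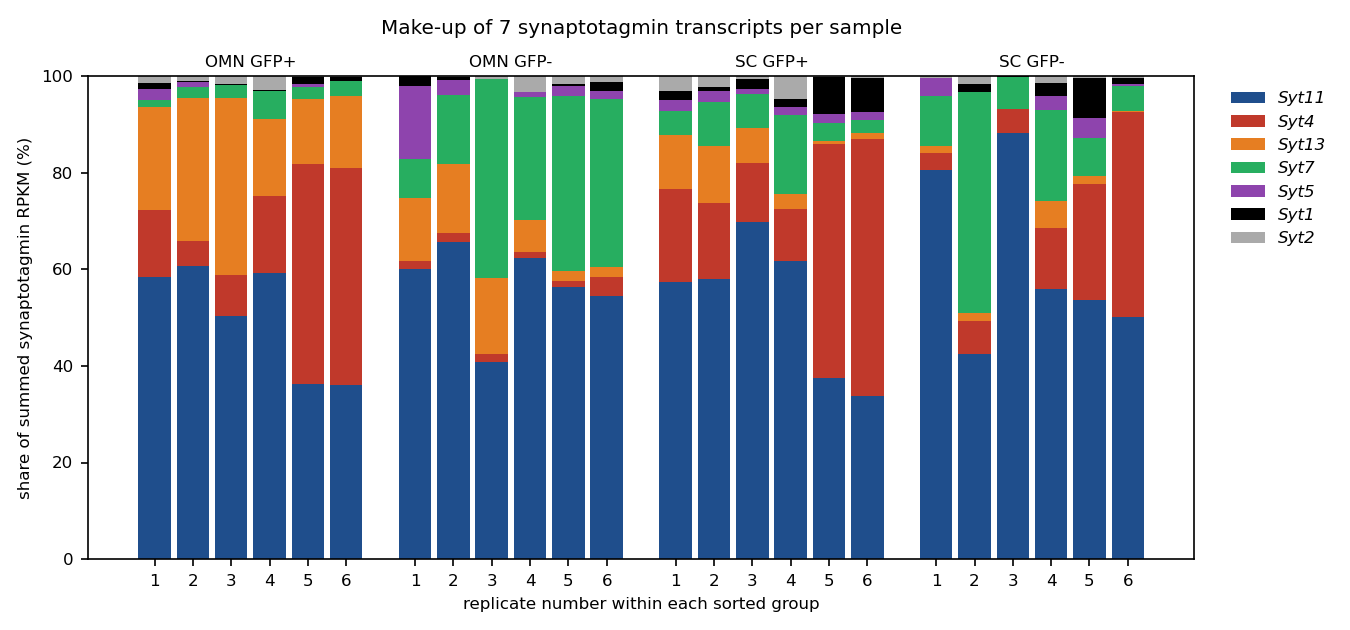
Share (%) of the summed RPKM of 7 synaptotagmins held by each gene in each of the 24 samples. *Syt11* (blue), *Syt4* (red) and *Syt13* (orange) fill 91.2% to 96.0% of each OMN GFP+ bar, and within OMN GFP+ samples *Syt4* takes its largest shares in replicates 5 and 6.

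The make-up shifted between replicates within a group. In OMN GFP+ replicates 5 and 6, the deeper samples, *Syt4* was 82.7 and 78.5 RPKM against 10.4 to 32.4 RPKM in replicates 1 to 4. In SC GFP+ replicates 5 and 6 it was 51.4 and 133 RPKM against 1.38 to 37.8. *Snap25* was likewise higher in the deeper samples, at 62.7 and 55.3 RPKM against 14.0 to 27.6 in OMN GFP+ samples and at 26.7 and 44.8 RPKM against 0.980 to 18.4 in SC GFP+ samples. *Rab3b*, *Rab3c* and *Syt1* were also higher in both deeper samples than in all others, in each GFP+ group, and *Sv2b* in SC GFP+ cells. In OMN GFP+ cells *Cplx2*, *Pclo*, *Stx1a*, *Syt2* and *Vamp2* were lower there, and in SC GFP+ cells none was. Of all genes 8.78% were so raised and 26.2% so lowered in OMN GFP+ samples, and 9.77% and 15.8% in SC GFP+ samples. The step from GFP- to GFP+ cells was positive in both sets for 27 of the 32 genes in OMN and 29 of 32 in SC cultures, and had opposite signs for *Nrxn3* and *Syn2* in OMN and for *Syn2*, *Syn3* and *Vamp1* in SC cultures. In OMN cultures the *Syt4* change was 3.74 in replicates 1 to 4 and 6.07 in replicates 5 and 6, and that of *Snap25* was 3.99 and 5.32. The paper names more than 1 sequencing platform and read length, which are not assigned to samples here. The part of depth, platform or read length in these shifts was not tested.

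*Snap25* and *Stx1a* are the plasma membrane SNAREs, and *Vamp2* is their main partner on the vesicle. *Snap25* was 14.0 to 62.7 RPKM in OMN GFP+ samples (median 25.1) and 0 to 0.641 RPKM in OMN GFP- samples, and rose by 4.44 ± 0.64 log2 units (adjusted p = 9.3e-05). In SC cultures it was 0.980 to 44.8 RPKM in GFP+ and 0.391 to 14.8 RPKM in GFP- samples, with 9.63 and 14.8 RPKM in GFP- replicates 5 and 6. The spinal step was 1.60 ± 0.64 (adjusted p = 0.34).

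*Stx1a* was 2.17 to 15.4 RPKM in OMN GFP+ and 0.181 to 1.95 RPKM in OMN GFP- samples, and rose by 1.95 ± 0.51 log2 units (adjusted p = 0.023). *Vamp2* was 2.38 to 23.8 RPKM in OMN GFP+ and 2.00 to 44.7 RPKM in SC GFP+ samples and held a median of 98.1% and 98.5% of the *Vamp1* and *Vamp2* sum. Its OMN step, 1.78 ± 0.72, missed the threshold (adjusted p = 0.17) and passed with the pairs as a block (adjusted p = 0.00032), and it was higher in 6 of 6 pairs. *Vamp1*, the form that prevails at mature neuromuscular junctions, was at most 0.741 RPKM in any sample.

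The complexins, small proteins that bind the SNARE complex and hold it ready, passed in OMN cultures only with the replicate pairs as a block and did not pass in SC cultures. *Cplx1* was 5.49 to 13.9 RPKM in OMN GFP+ and 0.159 to 3.22 RPKM in OMN GFP- samples, without overlap (log2 change 1.69 ± 0.54, adjusted p = 0.064, and 0.027 with the block). *Cplx2* was 2.94 to 39.7 RPKM and 1.01 to 5.57 RPKM in these groups (1.73 ± 0.54, adjusted p = 0.059, and 0.024 with the block). In SC GFP+ samples the same genes were 0.589 to 19.2 RPKM and 1.09 to 8.21 RPKM.

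Of the vesicle proteins, synaptophysin (*Syp*), an abundant membrane protein of the vesicle, had the lowest adjusted p in OMN cultures. It was 4.39 to 25.5 RPKM in OMN GFP+ samples (median 9.64) and 0 to 0.360 RPKM in OMN GFP- samples, a rise of 3.30 ± 0.49 log2 units (adjusted p = 0.00011). In SC cultures it was 0.393 to 12.8 RPKM in GFP+ and 0 to 3.83 RPKM in GFP- samples. That step was 1.15 ± 0.49 (adjusted p = 0.38), with *Syp* higher in 6 of 6 pairs.

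*Rab3a*, the GTPase that brings vesicles to the active zone, was 10.3 to 34.9 RPKM in OMN GFP+ and 0.145 to 2.33 RPKM in OMN GFP- samples. It rose by 3.36 ± 0.52 log2 units (adjusted p = 0.00019). In SC cultures it was 3.79 to 72.7 RPKM in GFP+ and 0.886 to 7.16 RPKM in GFP- samples (1.98 ± 0.52, adjusted p = 0.060, and 0.040 with the pairs as a block). *Rab3a* held a median of 73.2% of the *Rab3a*, *Rab3b* and *Rab3c* sum in OMN GFP+ samples and 52.7% in SC GFP+ samples, whereas in OMN GFP- samples *Rab3b* held 68.8%. *Rab3b* (0.925 to 8.26 RPKM in OMN GFP+) and *Rab3c* (0.644 to 4.59 RPKM) did not pass, but the *Rab3c* groups of the OMN cultures did not overlap and *Rab3c* passed there with the pairs as a block (adjusted p = 0.0080).

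Synapsins tether vesicles to each other in the reserve pool. *Syn1* was 1.78 to 11.8 RPKM in OMN GFP+ and 0 to 0.731 RPKM in OMN GFP- samples, and rose by 1.86 ± 0.50 log2 units (adjusted p = 0.024). *Syn2* stayed at or below 1.63 RPKM and *Syn3* at or below 0.560 RPKM in all 24 samples, and in OMN GFP+ samples *Syn1* held a median of 89.6% of the synapsin sum. *Snap91* (AP180), a clathrin adaptor for vesicle retrieval, was 3.13 to 6.95 RPKM in OMN GFP+ and 0.212 to 0.565 RPKM in OMN GFP- samples (2.07 ± 0.42, adjusted p = 0.0034). In SC GFP+ samples it was 0.729 to 21.8 RPKM (1.54 ± 0.42, adjusted p = 0.078, and 0.024 with the pairs as a block).

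The SV2 glycoproteins, which sit in the synaptic vesicle membrane, were mostly *Sv2a*. It was 1.63 to 7.42 RPKM in OMN GFP+ and 0.386 to 12.3 RPKM in SC GFP+ samples, with a median of 98.6% and 90.5% of the family, and in SC GFP- samples its share was 64.7%. Its steps missed the threshold in both cultures (1.43 ± 0.44, adjusted p = 0.057 in OMN; 1.67 ± 0.44, adjusted p = 0.065 in SC) and passed it with the pairs as a block (adjusted p = 0.033 and 0.050). *Sv2b* was listed at 0 in all 6 OMN GFP+ samples and at up to 0.497 RPKM in SC GFP+ samples. *Sv2c* was at most 0.538 RPKM in OMN GFP+ and 1.55 RPKM in SC GFP+ samples.

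At the active zone, *Unc13a* (Munc13-1), which primes docked vesicles, was 3.28 to 14.7 RPKM in OMN GFP+ and 0.181 to 1.70 RPKM in OMN GFP- samples. It rose by 2.43 ± 0.36 log2 units (adjusted p = 0.0001). In SC cultures it was 1.97 to 11.2 RPKM in GFP+ and 0.564 to 3.16 RPKM in GFP- samples, higher in 6 of 6 pairs (1.32 ± 0.36, adjusted p = 0.070, and 0.030 with the pairs as a block). Its paralog *Unc13b* was 1.85 to 3.95 RPKM in OMN GFP+ and 0.465 to 1.14 RPKM in OMN GFP- samples, without overlap (1.06 ± 0.26, adjusted p = 0.013). *Unc13a* held a median of 75.2% of the sum of both in OMN GFP+ and 48.6% in OMN GFP- samples.

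The scaffolds bassoon (*Bsn*) and piccolo (*Pclo*) were scarce transcripts with clean separation in the OMN cultures. *Bsn* was 1.09 to 1.63 RPKM in OMN GFP+ and 0 to 0.140 RPKM in OMN GFP- samples (1.16 ± 0.31, adjusted p = 0.025), and *Pclo* 0.871 to 4.25 RPKM and 0.0861 to 0.292 RPKM (1.25 ± 0.28, adjusted p = 0.0077). The offset of 1 RPKM understates such changes: the ratio of the group means was 22.7 for *Bsn* and 10.3 for *Pclo*. In SC cultures *Bsn* was 0.482 to 7.50 RPKM in GFP+ and 0.0265 to 2.00 RPKM in GFP- samples, higher in 6 of 6 pairs (1.31 ± 0.31, adjusted p = 0.033). That call was kept in 4 of 12 fits that left out 1 spinal sample. The neurexins, which bind partners across the cleft, did not pass, except *Nrxn2* in OMN cultures with the pairs as a block (adjusted p = 0.043): *Nrxn2* was 0.172 to 5.38 RPKM in OMN GFP+ and 0.521 to 13.2 RPKM in SC GFP+ samples, and *Nrxn3* at most 0.172 RPKM in OMN GFP+ and 2.21 RPKM in SC GFP+ samples.

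*Rims1* and *Rims2* encode RIM proteins, which tie calcium channels and Rab3 to the release site. *Rims1* lies at chr1:22286251-22805994 (minus strand) in GRCm38. It was at 0.146, 0.295, 0, 0, 0.276 and 0.0197 RPKM in OMN GFP+ replicates 1 to 6, and in OMN GFP- samples at 0 to 0.328 RPKM. In SC GFP+ replicates 1 to 6 it was at 1.21, 1.69, 1.18, 1.74, 1.28 and 1.72 RPKM. In SC GFP- samples it was below 0.6 RPKM except for 1.89 RPKM in sample 4. The spinal step was 0.85 ± 0.19 log2 units (adjusted p = 0.023), and the call was kept in 9 of 12 fits without 1 spinal sample. *Rims2* was 1.68 to 16.7 RPKM in OMN GFP+ and 0.596 to 6.86 RPKM in SC GFP+ samples, and passed in OMN cultures with the pairs as a block (adjusted p = 0.024). *Rims1* thus held a median of 2.22% of the *Rims1* and *Rims2* sum in OMN GFP+ samples and 37.4% in SC GFP+ samples.

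**Figure D5:**
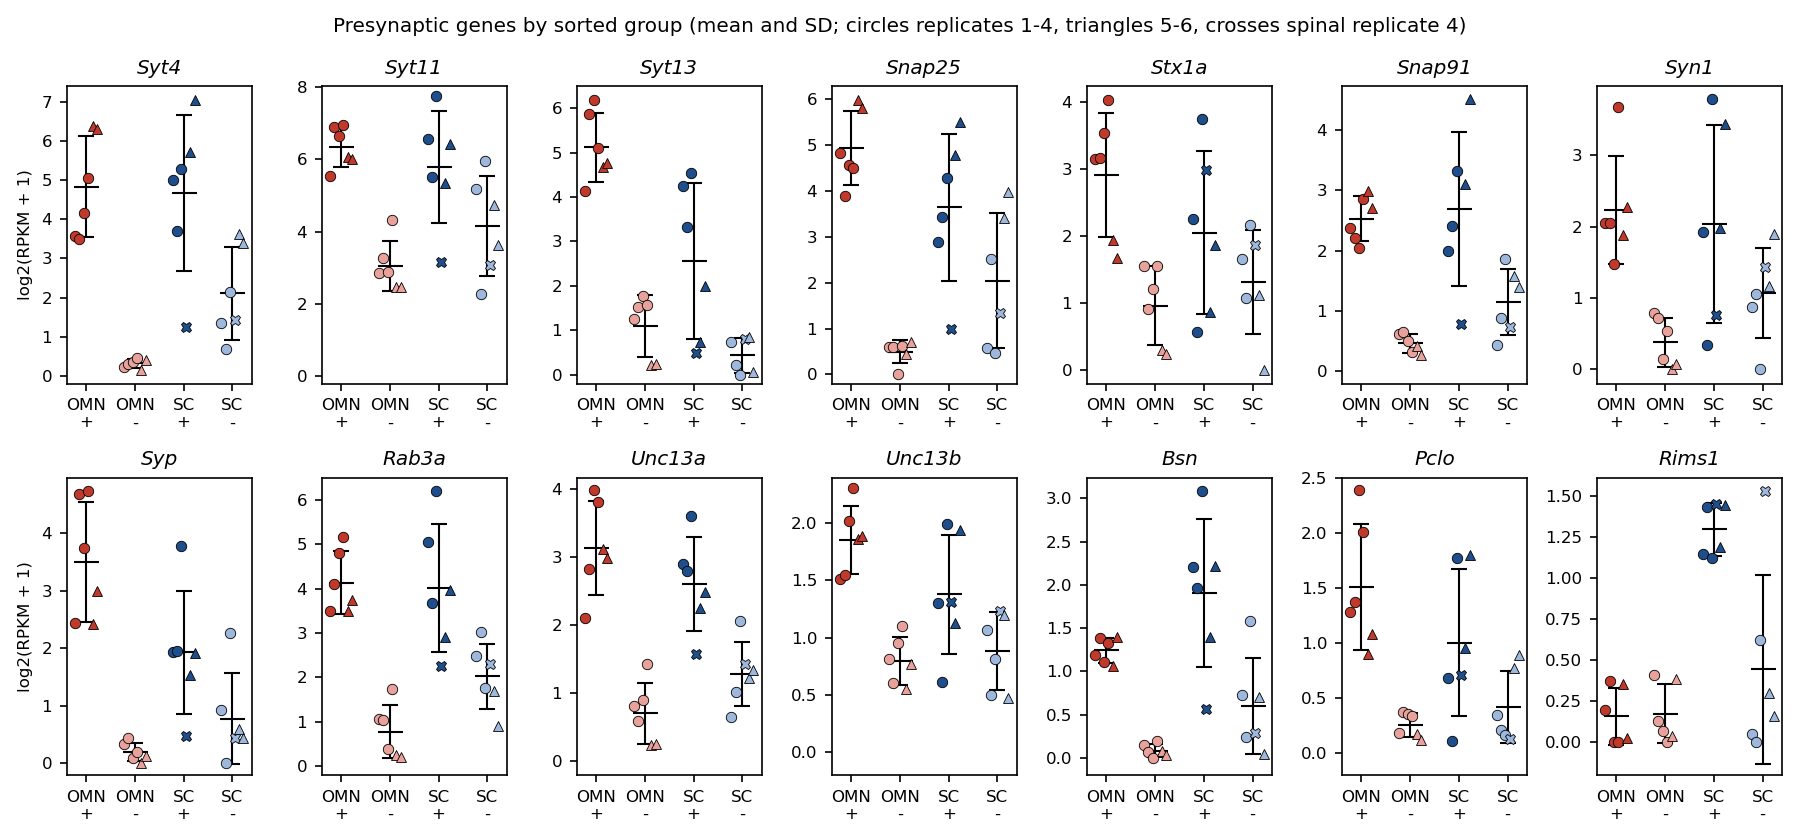
Level, as log2(RPKM + 1), of the 13 genes that rose in OMN cultures and of *Rims1* in each sample of the 4 groups (bars mean and SD, n = 6; circles replicates 1 to 4, triangles 5 and 6, crosses SC replicate 4). OMN GFP+ and GFP- points do not overlap for the first 13 genes, and for *Rims1* the SC GFP+ points stand above all OMN points.

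Between the motor neuron types themselves, 1 of the 32 genes differed: *Rims1* was lower in oculomotor than in spinal GFP+ cells, where 0.603% of the 19240 genes tested differed, 0.249% lower and 0.353% higher in oculomotor cells. Means were 0.123 ± 0.138 (SD, n = 6) against 1.47 ± 0.273 RPKM (SD, n = 6), and the groups did not overlap, which held for 0.697% of all genes in that direction. The log2 change was -1.14 ± 0.17 (limma adjusted p = 0.0069). Replicates 1 to 4 alone gave -1.15 (adjusted p = 0.18) and replicates 5 and 6 alone -1.12 (adjusted p = 0.17), neither past the threshold, and the call was kept in 12 of 12 fits that left out 1 sample. SC GFP+ sample 4, the lowest of its group for 15 of the 32 genes, held the highest *Rims1* level.

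The other genes did not pass, and 6 of the 32 had an unadjusted p under 0.05, *Rims1* included (10.1% of all genes). Higher in oculomotor cells by point estimate were *Syt13* (2.56 ± 0.70, adjusted p = 0.15), *Syp* (1.57 ± 0.57, adjusted p = 0.33), *Cplx2* (1.34 ± 0.58, adjusted p = 0.46) and *Snap25* (1.29 ± 0.66, adjusted p = 0.55). Higher in spinal cells were *Syt1* (-1.30 ± 0.62, adjusted p = 0.51), *Syt5* (-0.94 ± 0.45, adjusted p = 0.51) and *Nrxn3* (-0.81 ± 0.29, adjusted p = 0.33). In a fit of all 24 samples *Syt13* passed as well (adjusted p = 0.019; 1.54% of all genes differed), and its change was 2.17 within replicates 1 to 4 and 3.35 within replicates 5 and 6. Point estimates were positive for 15 of the 32 genes (43.9% of all genes), with a median of -0.03 beside -0.04 over all genes. These intervals are wide, and a missed threshold does not show equal levels.

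Between the GFP- fractions none of the 32 genes passed (0.96% of all genes did, 0.41% higher and 0.55% lower in OMN cultures), and 3 had an unadjusted p under 0.05, a share near the 11.3% of all genes. Levels were higher in OMN than in SC GFP- cells for 6 of the 32 genes (40.5% of all genes), with a median log2 change of -0.27 (-0.04 over all genes). The largest differences were for *Syt4* (-1.79 ± 0.73, adjusted p = 0.33) and *Snap25* (-1.55 ± 0.64, adjusted p = 0.34). The *Syt4* groups did not overlap (0.87% of all genes, OMN lower), at 0.106 to 0.380 RPKM against 0.606 to 11.4 RPKM. The sum of the 8 pan-neuronal markers was 20.7 to 67.7 RPKM in OMN GFP- and 59.9 to 283 RPKM in SC GFP- samples, with the highest value in SC GFP- sample 5. That sample held 60.5 RPKM *Stmn2* and was the highest of its group for *Syt1*, *Sv2a* and *Sv2b*. The 6 pluripotency markers summed to 684 to 9876 RPKM in OMN GFP- samples (median 6437). In SC GFP- samples they summed to 74.4 to 5785 RPKM (median 231), and to at most 393 RPKM without sample 4. By point estimate all 6 were higher in OMN than in SC GFP- cells, and 1 passed. The part of neurons or of stem cell transcript in the GFP- gate in this difference was not tested.

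Other genes of the release pathway were read from further lists. Over all genes 3.81% rose in OMN GFP+ cells and 2.34% fell. Of 21 other genes of the release machinery tested, 4 rose in OMN GFP+ cells and 1 fell. Among them *Napb* (a SNAP that helps take SNARE complexes apart; 2.20), *Cadps* (which primes dense-core vesicles; 2.10) and *Doc2b* (a calcium sensor; 1.71) rose, and *Cadps2* fell by 0.46. Of 19 other vesicle and recycling genes 3 rose and 1 fell. The rising genes were *Slc18a3* (4.65) and *Slc18a2* (2.90), which load acetylcholine and monoamines into vesicles, and *Synj1* (1.42), a lipid phosphatase that strips clathrin. *Sypl* fell by 1.11 with overlapping groups. Of 17 other active zone and adhesion genes 3 rose, *Apba1* (1.43) and, with overlapping groups, *Lin7a* (2.27) and *Rims3* (1.38). Of 22 widely expressed trafficking paralogs 3 rose and 2 fell, *Stx3* by 2.35 and *Vamp8* by 2.15 log2 units; *Stx12* rose by 1.47, and *Rab3d* (1.76) and *Stx7* (1.37) rose with overlapping groups. *Cadps2* and the genes with overlapping groups are named after their values were seen. In SC cultures, where 1.23% of all genes changed, 1 of all these genes passed, *Amph* (1.50, limma adjusted p = 0.029), which bends membrane in vesicle retrieval. None did between the GFP+ cells, where 0.603% of all genes did.

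Among markers beside the same step, all 8 pan-neuronal markers rose in OMN GFP+ cells (their sum was 1453 to 2132 RPKM against 20.7 to 67.7 RPKM) and 6 rose in SC cultures, while 5 of 6 pluripotency and 3 of 5 proliferation markers fell in OMN GFP+ cells. In SC GFP+ samples the pluripotency sum reached 12400 RPKM, in sample 5, and no marker of that list passed. Motor neuron markers rose for 7 of 9 in OMN and 3 of 9 in SC cultures, neural progenitor markers fell for 1 of 9 and 0 of 9, endoderm markers fell for 1 of 6 and 4 of 6, and no glial or interneuron marker passed in either. Over all genes 3.81% rose and 2.34% fell in OMN cultures, and 0.397% and 0.83% in SC cultures. The repressor *Rest* was 0.421 to 4.60 RPKM in OMN GFP+ and 9.54 to 28.8 RPKM in OMN GFP- samples, without overlap, and fell by 2.84 log2 units (adjusted p = 0.0013). It was the 1 gene of 7 in its repressor complex list that did so. In SC cultures *Rest* was 0.720 to 29.8 RPKM in GFP+ samples, highest in sample 4, and 8.18 to 31.0 RPKM in GFP- samples, and did not pass. The part of *Rest* or of the share of neurons in the presynaptic levels was not tested.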

How the data were processed

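Poly(A) RNA of 24 sorted samples had been made into SMART-seq2 libraries by the authors, without molecular identifiers, mapped to mm10 (GRCm38) with HISAT2 2.0.3 and turned into RPKM with rpkmforgenes; the deposited values are RPKM, that is reads scaled by transcript length and by the mapped reads of the sample. Libraries under a minimum number of mapped reads had been left out by the authors, who ran DESeq2 1.12.4 on counts. The gene annotation and the use of strand are not given in the sources used here, so a gene and an antisense partner cannot be told apart.

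Here log2(RPKM + 1) was fitted with limma 3.58.1 (R 4.3.3, variance trend, Benjamini-Hochberg over all genes, threshold 0.05) after dropping genes with a value over 0 in fewer than 2 samples of the fit. GFP+ cells were compared in a fit of their 12 samples, which matches the comparison the authors made, and the other comparisons in a fit of 24 samples in 4 groups. The GFP+ comparison and the OMN step were also run on simulated data with independent noise. Those data held no outlying samples or replicate sets, so such effects were not tested. The labels do not say whether replicates are separate differentiations, so p values measure the spread between these samples. The main fits held no block. In the block fits same-numbered GFP+ and GFP- samples of a culture counted as paired. Both departed alike from their group means in every pair (correlations 0.379 to 0.728 in OMN and 0.421 to 0.661 in SC cultures over 11951 genes). SC GFP+ sample 6, however, correlated best with GFP- sample 5, and same-numbered GFP+ samples 5 and 6 of different cultures correlated at 0.707 and 0.600. A likeness shared by replicates 5 and 6 thus enters these values.

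Depth was estimated from 5911 genes, in which 95.9% to 97.9% of the values under 10 reads were whole within 2%. An RPKM of 1 equals 0.75 to 7.68 reads per kilobase, so levels below 1 RPKM in the shallower samples rest on few reads. No count test was run on RPKM. Python 3.11.15, numpy 2.4.6, pandas 2.3.3 and matplotlib 3.10.9 were used for the rest, and promoters were read from RefSeq windows.

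The 32 genes and the other lists were chosen with earlier results of these data known. All 32 are named, and from other lists up to 4 genes with the largest changes among those that passed and whose groups did not overlap, with *Rest*, *Mnx1*, *Isl1* and *Phox2a* as checks. A gene that this rule would name is not reported here. Alternatives were another offset, other filters, upper-quartile scaling, array weights, replicate blocks, replicate sets, other sample sets and each sample left out.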

Additional observations from a re-analysis of the deposited data

Results flagged for a closer look

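In 11 of 127 gene and group combinations 1 sample lay far from the other 5 of its group on the log2(RPKM + 1) scale, its gap to the nearest sample, as a part of the whole range, being over Dixon's critical value at the 95% level. Chance marks about 1 in 20, here 6.3. SC GFP- sample 5 was the high sample for *Syt1* (3.96 RPKM), *Sv2a* (2.23 RPKM) and *Sv2b* (0.491 RPKM), and it also held the highest pan-neuronal marker sum of its group, 283 RPKM. In the other SC samples *Vamp1* was high in GFP- sample 4 (0.741 RPKM), *Nrxn2* was high in GFP- sample 3 (4.91 RPKM against 0.727 in the next), and *Rab3b* was low in GFP+ sample 1 (1.11 RPKM against 3.61 in the next). In OMN GFP- cells *Syt2* was high in sample 4 (0.970 RPKM), *Syt5* in sample 1 (1.59 RPKM) and *Vamp1* in sample 3 (0.206 RPKM), and *Snap25* was listed at 0 RPKM in sample 3 against 0.366 in the next. In OMN GFP+ cells *Syn1* was high in sample 4 (11.8 RPKM against 3.86 in the next), and without that sample its step was 1.57 log2 units and missed the threshold (limma adjusted p = 0.070). The part of single libraries in these values was not tested further.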

How the results depend on the processing

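Counts of genes that passed, and values of single genes, were recomputed under other settings. The values cover all 32 genes for the steps in OMN and SC cultures, and only chosen genes for the other comparisons. Of these values 843 kept their direction and side of the threshold, 74 newly passed, 22 fell short and 12 turned. For GFP+ cells, the 1 gene that differed (*Rims1*) became 0 in replicates 1 to 4, 0 in replicates 5 and 6, and 0 with the replicate number as a block, while the fit of all 24 samples gave 2. Over all genes 116 of 19240 differed in the main fit, and 30 of 17863 and 13 of 16187 in these replicate sets. With the block 73 of 19240 did, and in the fit of 24 samples 342 of 22179. The count in OMN cultures (13) was 8 in replicates 1 to 4, 8 in replicates 5 and 6 and 21 with pairs as a block within each culture. In these fits 1.72%, 2.46% and 8.22% of all genes rose, against 3.81% in the main fit. The count in SC cultures (2) was 1 with an offset of 0.1 RPKM, 7 for genes above 1 RPKM and 7 with array weights. It was 6 with the replicate number as a block, 8 with pairs as a block within each culture, 0 in replicates 1 to 4 and 1 in replicates 5 and 6. Without both samples 4 it was 9, and in the fit of 12 samples 0. Over all genes 88 of 22179 rose in the main fit. In these other fits, in the same order, 77 of 22179, 134 of 15397, 183 of 22179, 154 of 22179, 295 of 22179, 0 of 20942, 109 of 18652, 296 of 21837 and 1 of 20877 rose. The interaction (0) was 1 with array weights, 1 in replicates 5 and 6, 1 without both samples 4, 1 without spinal GFP- samples 2 and 4, and 2 with the block within each culture. Over all genes 71 of 22179 passed in the main fit. In these other fits, in the same order, 240 of 22179, 84 of 18652, 228 of 21837, 263 of 21063 and 453 of 22179 passed. Between GFP- cells (0), 2 genes passed in replicates 5 and 6, *Snap25* (-3.11) and *Syt4* (-3.24). Over all genes 299 of 18652 passed there, 180 of them lower in OMN cultures, against 213 of 22179 in the main fit. The cause was not tested.

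With 1 sample left out the counts were 1 to 1 for GFP+ cells, 10 to 15 for OMN cultures, 0 to 11 for SC cultures, 0 to 0 for GFP- cells and 0 to 1 for the interaction. The SC count was 0 without GFP- sample 1 or 6, 1 without GFP+ sample 1, 2, 3 or 6 or GFP- sample 2 or 4, 4 without sample 5 of either fraction and 11 without GFP+ sample 4.

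The block within each culture pairs its 2 fractions, while the replicate number as a block ties same-numbered samples of both cultures. Across cultures the numbers did not pair the samples (correlations from -0.175 to 0.707 in GFP+ and -0.039 to 0.612 in GFP- cells), so the block there shares only a number; with it *Rims1* had an adjusted p of 0.059 between GFP+ cells.

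Directions turned for changes near 0. *Syt4* between GFP+ cells was -0.056 with array weights and -0.038 in replicates 5 and 6, and -0.52 to 0.65 with 1 sample left out. Other genes turned there too with 1 sample left out, such as *Rab3a* (-0.23 to 0.56), *Syn1* (-0.15 to 0.55) and *Vamp2* (-0.44 to 0.34). So did some between GFP- cells, such as *Cplx1* (-0.098 to 0.28), and in the interaction, such as *Rab3c* (-0.12 to 0.70). In OMN cultures *Nrxn3* was -0.010 with upper-quartile scaling, -0.044 in replicates 5 and 6 and -0.017 to 0.041 with 1 left out, *Rims1* -0.057 to 0.034 with 1 left out, and *Syn2* -0.045 with array weights, -0.19 in replicates 5 and 6 and -0.012 to 0.14 with 1 left out. In SC cultures *Syn2* was 0.049 with array weights, 0.28 in replicates 5 and 6 and -0.24 to 0.039 with 1 left out, *Syn3* -0.0092 in replicates 5 and 6, and *Vamp1* 0.013 with array weights, 0.22 in replicates 5 and 6, 0.11 without spinal GFP- samples 2 and 4 and -0.12 to 0.086 with 1 left out. Over all genes, upper-quartile scaling gave 838 higher and 1001 lower calls in OMN cultures against 845 and 519, and 200 and 126 against 91 and 122 between GFP- cells. Depth limits levels below 1 RPKM.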
